A study of Mus musculus with 7 samples.

Results

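The genes described here are 10 genes that mark macrophages, the resident phagocytes of tissues: C1qa, C1qb, C1qc, Csf1r, Cx3cr1, Mrc1, Emr1, Cd68, Lyz2 and Pf4. They were chosen by gene symbol, and they are 10 of the 23235 symbols in the tables. Each had 1 entry in every library, and 10 of 10 were among the 13469 genes tested, which had a mean of at least 1 FPKM (a level corrected for transcript length and for the fragments mapped in a library) over the 7 libraries. The samples were fetal kidneys of C57BL/6 mice grown in culture, 3 E2-2 deleted and 4 E2-2 wildtype. The kidneys of both genotypes carried activated beta-catenin, through which canonical Wnt signals act. E2-2 is a helix-loop-helix transcription factor encoded by Tcf4. For both genotypes tamoxifen was injected into the pregnant mother (2 mg for each 40 g that it weighed) and kidneys were taken, both at 10.5 dpc (days post coitum), and culture lasted 3 to 4 days. The labels give neither the driver of the recombination, the exons deleted, nor the form of the activated beta-catenin allele. They do not say which library was cultured for how long, or whether each came from a separate animal, so the p-values measure a spread between libraries that may be technical.

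Macrophages enter the fetal kidney early, from progenitors of the yolk sac and later of the fetal liver, and they stay as the kidney grows. Colony-stimulating factor 1 and interleukin 34 keep them alive through the receptor Csf1r. They take up dying cells, digest them in lysosomes and make most of the C1q of a tissue. An explant has no blood flow to bring in new cells.

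The E2-2 gene itself did not separate the genotypes. Tcf4 was at 33.5, 41.7 and 42.0 FPKM in E2-2 deleted replicates 1 to 3, against 48.8, 58.1, 28.7 and 39.2 FPKM in E2-2 wildtype replicates 1 to 4. A value over the whole gene does not show the loss of single exons, so it does not check the labels. Inferred depth was 15.7 to 22.1 mega-fragments in deleted libraries and 12.9 to 23.7 mega-fragments in wildtype libraries. A pair of deleted libraries stood apart from the rest. Deleted replicate 2 had 2.69 FPKM of Six2, a factor of nephron progenitors, against 33.5 and 62.8 FPKM in the other deleted libraries and 29.0 to 74.8 FPKM in wildtype libraries. Deleted replicate 3 had the highest summed FPKM of red blood cell and of neutrophil marker genes, though not of every gene in these lists. Over all 13469 genes, limma on log2(FPKM + 1) called 0 at a Benjamini-Hochberg adjusted p of 0.05 (0.0%), and 605 genes (4.49%) had an unadjusted p under 0.05.

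All 10 macrophage genes were found in all 7 libraries, and 0 of 10 differed between the genotypes past the threshold, with adjusted p-values of 0.795 to 0.970 in limma. Of the 10, 9 had a positive difference of E2-2 deleted minus E2-2 wildtype and 1, Cx3cr1, a negative one. Of all genes tested, 39.3% had a positive difference. Single libraries moved this count: it was 5 of 10 without deleted replicate 3, 6 of 10 without wildtype replicate 4, 7 of 10 without wildtype replicate 2, 8 of 10 without deleted replicate 2 and 9 of 10 without each of the other 3. The median difference of the 10 was 0.29 on the log2(FPKM + 1) scale, beside -0.05 over all genes tested. None of the 10 had an unadjusted p under 0.05. In 0 of 10 did the deleted and wildtype libraries fall into ranges that do not overlap, where 4.89% of all genes tested did (2.84% with every deleted library above and 2.05% below). The mean of the 10 genes per library was 3.78, 4.43 and 4.76 on the log2(FPKM + 1) scale in deleted replicates 1 to 3, against 4.21, 3.84, 4.73 and 3.62 in wildtype replicates 1 to 4. Deleted libraries averaged 4.32 ± 0.50 and wildtype libraries 4.10 ± 0.49 (SD, n = 3 and n = 4). The difference of 0.22 is smaller than the SD of either genotype, and libraries of 1 genotype lay up to 0.98 (deleted) and 1.11 (wildtype) apart. In bulk RNA, fewer cells of a type and less RNA per cell cannot be told apart.

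The libraries high and low in macrophage transcripts were found in both genotypes. Summed over the 10 genes, FPKM was 231, 464 and 534 in deleted replicates 1 to 3, against 369, 245, 667 and 212 in wildtype replicates 1 to 4. These sums were 0.0565%, 0.125% and 0.122% of the FPKM total in the deleted libraries, against 0.0885%, 0.0634%, 0.143% and 0.0462% in the wildtype libraries. Deleted replicate 3 and wildtype replicate 3 held the highest value of 4 genes each, and deleted replicate 2 that of the other 2. Wildtype replicate 4 was among the lowest 3 libraries for 10 of 10 genes, wildtype replicate 2 for 9 and deleted replicate 1 for 8.

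**Figure D1:**
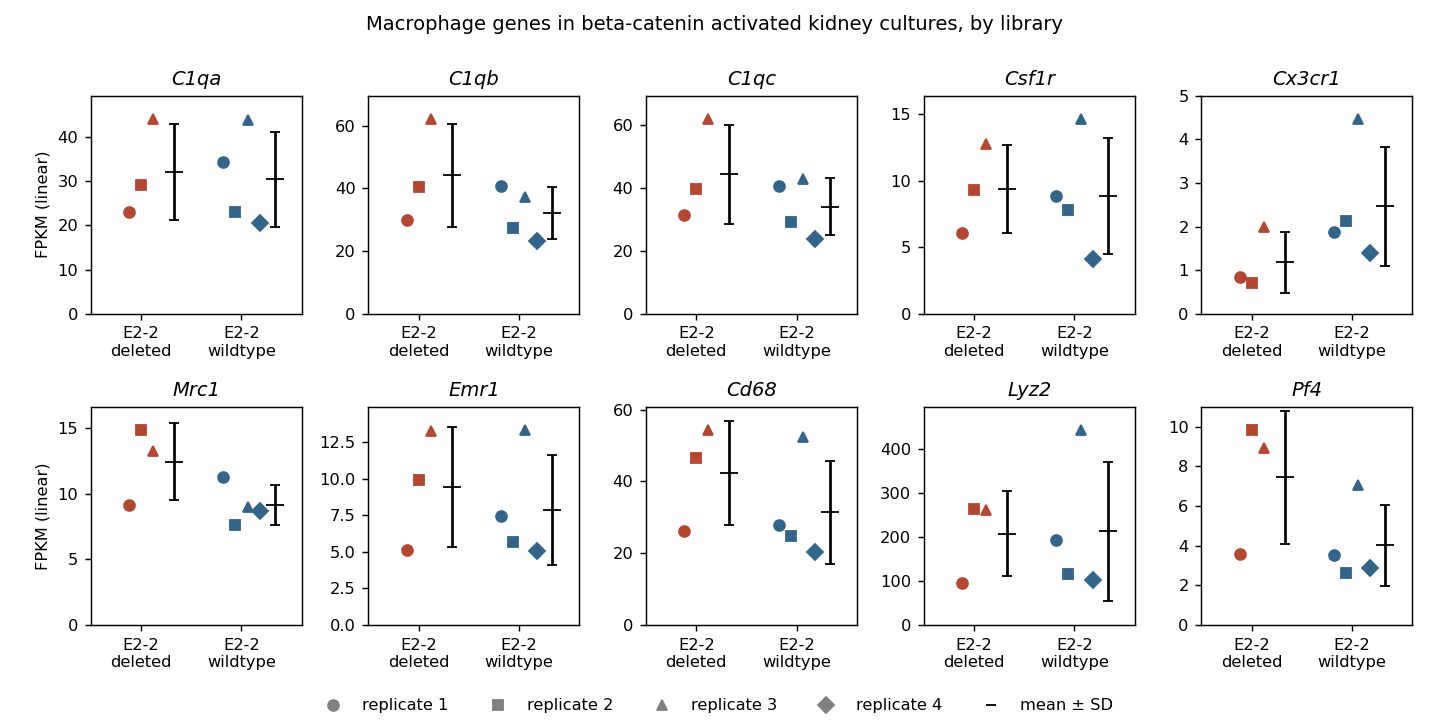
FPKM (linear axes from 0) of the 10 macrophage genes in each library, E2-2 deleted on the left of each panel and E2-2 wildtype on the right, with symbols for the replicate and a bar for mean ± SD (n = 3 and n = 4). The genotypes overlap in all 10 panels, with deleted replicate 1 and wildtype replicates 2 and 4 low in most of them, and for Cx3cr1 the means are 1.18 FPKM in deleted and 2.47 FPKM in wildtype libraries.

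The 3 chains of C1q, the recognition protein of the classical complement pathway, were among the most abundant of the 10. In the tables they lie side by side on chromosome 4, without overlap, C1qb at 136436061 to 136442092, C1qc at 136445717 to 136448829 and C1qa at 136451831 to 136454759 (counted from 1; the build is not given in the sources used here, and these are not GRCm38 positions). C1qa was at 23.0, 29.1 and 44.1 FPKM in deleted replicates 1 to 3, against 34.4, 23.1, 43.8 and 20.5 FPKM in wildtype replicates 1 to 4. Its highest libraries, deleted replicate 3 and wildtype replicate 3, are of different genotypes, and its means were 32.1 ± 10.9 FPKM in deleted and 30.4 ± 10.7 FPKM in wildtype libraries. C1qb was at 29.9, 40.5 and 62.2 FPKM in deleted libraries, against 40.8, 27.4, 37.3 and 23.3 FPKM in wildtype libraries. C1qc was at 31.4, 39.8 and 62.1 FPKM in deleted libraries, against 40.6, 29.3, 43.1 and 23.7 FPKM in wildtype libraries. For both, deleted replicate 3 stood above every wildtype library while the other deleted libraries lay within the wildtype range. The log2 differences were 0.09 (SE 0.30, adjusted p = 0.937 in limma) for C1qa, 0.42 (SE 0.28, adjusted p = 0.795 in limma) for C1qb and 0.35 (SE 0.28, adjusted p = 0.795 in limma) for C1qc. Without deleted replicate 3 they were -0.16 for C1qa, 0.15 for C1qb and 0.09 for C1qc. Without deleted replicate 1 they were 0.29 for C1qa, 0.66 for C1qb and 0.57 for C1qc.

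C1qb and C1qc had the closest pattern of any pair of the 10, with a Pearson r of 0.985 over the 7 libraries, given as a description. The ratio of C1qa to C1qb was lower in every deleted library than in every wildtype library, by 0.34 on the log2 scale on average, as were the ratios of C1qa to 152 of 13435 genes (1.13%). The 250 bases before the start of each gene are shown for these 2 genes, since they moved most closely together (RefSeq, GRCm38.p6, minus strand for both, 5′ to 3′; C1qb at chr4:136886201-136886450 and C1qc at chr4:136892915-136893164). Capitals mark GAGGAAGT, a PU.1 motif, TGAGTCA, an AP-1 motif, and TGCTGAC, part of the site of MAF factors, on either strand. PU.1, encoded by Spi1, AP-1 and MAF are factors known for their part in macrophage gene expression.
C1qb: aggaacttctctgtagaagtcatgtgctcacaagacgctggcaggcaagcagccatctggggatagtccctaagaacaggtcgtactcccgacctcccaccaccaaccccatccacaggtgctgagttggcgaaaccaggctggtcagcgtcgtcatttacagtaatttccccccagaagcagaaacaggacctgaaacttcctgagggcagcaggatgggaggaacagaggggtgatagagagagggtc
C1qc: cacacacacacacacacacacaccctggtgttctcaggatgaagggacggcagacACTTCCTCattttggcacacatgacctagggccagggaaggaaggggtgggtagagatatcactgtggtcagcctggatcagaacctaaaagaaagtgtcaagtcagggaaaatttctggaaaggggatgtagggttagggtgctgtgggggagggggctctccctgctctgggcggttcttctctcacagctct
In C1qc the PU.1 letters stand on the opposite strand, 195 bases before the start, and none of the 3 motifs is in the C1qb window. Windows of 300 bases (250 before and 50 after the start) were found in RefSeq for 7 of the 10 genes, and none for C1qa, Csf1r and Emr1. GAGGAAGT was in 2 of these 7 and in 3.2% of all 32817 windows. TGAGTCA was in 1 of 7 and in 5.2% of all windows, and TGCTGAC in 0 of 7 and in 4.67%. GGAA, the core of ETS sites, which GAGGAAGT also holds, was in 7 of 7 windows and in 96.0% of all windows. A match is a description of the letters and shows no binding. Bases just after the start were found in a known transcript of the gene for C1qc, Mrc1, Pf4, Cx3cr1 and Lyz2. For C1qb and Cd68 they were not, so the starts used for C1qb and Cd68 are less certain.

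Transcripts of the surface receptors were less abundant than those of C1q. Csf1r (chromosome 18, 61265226 to 61290793 in the tables), the receptor on which macrophages depend for survival, was at 6.09, 9.33 and 12.7 FPKM in deleted replicates 1 to 3, against 8.81, 7.82, 14.6 and 4.08 FPKM in wildtype replicates 1 to 4. Both the highest and the lowest Csf1r library were wildtype. The means were 9.38 ± 3.32 FPKM in deleted and 8.83 ± 4.37 FPKM in wildtype libraries, a log2 difference of 0.14 (SE 0.38, 95% interval -0.74 to 1.01, adjusted p = 0.921 in limma). The difference was -0.09 without deleted replicate 3 and -0.14 without wildtype replicate 4, and it was 0.40 without wildtype replicate 3. Csf1, a ligand of Csf1r, averaged 11.5 ± 2.10 FPKM in deleted and 11.9 ± 2.43 FPKM in wildtype libraries, a log2 difference of -0.03. Il34, the other ligand, averaged 1.50 ± 0.198 FPKM in deleted and 2.16 ± 1.65 FPKM in wildtype libraries, where wildtype replicate 2 held 4.52 FPKM. Neither ligand passed the test (adjusted p = 0.964 for Csf1 and 0.870 for Il34 in limma).

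Emr1 (chromosome 17, 57498109 to 57622952) encodes the adhesion receptor by which mouse macrophages are usually stained. It was at 5.13, 9.88 and 13.2 FPKM in deleted libraries, against 7.47, 5.65, 13.3 and 5.03 FPKM in wildtype libraries. The library order of Emr1 was that of Csf1r, with a Spearman rho of 1.0 over the 7 libraries, as a description. The log2 difference was 0.24 (SE 0.37, adjusted p = 0.856 in limma). It was -0.03 without deleted replicate 3 and 0.58 without deleted replicate 1.

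Mrc1 (chromosome 2, 14151041 to 14253650), the mannose receptor, had the smallest SD of log2(FPKM + 1) within genotype among the 10. It was at 9.17, 14.8 and 13.3 FPKM in deleted libraries, against 11.3, 7.61, 8.95 and 8.69 FPKM in wildtype libraries. The other deleted libraries lay above all 4 wildtype libraries, and deleted replicate 1 lay within their range. The means were 12.4 ± 2.92 FPKM in deleted and 9.13 ± 1.54 FPKM in wildtype libraries. Mrc1 had the smallest unadjusted p of the 10, 0.0667, at a log2 difference of 0.39 (SE 0.18, 95% interval -0.03 to 0.82, adjusted p = 0.795 in limma), and 0.143 in the exact 2-sided permutation test. The difference was 0.26 without deleted replicate 2. The wildtype value of Mrc1 did not follow the other macrophage genes: in wildtype replicate 3, where Csf1r, Cx3cr1, Emr1 and Lyz2 were at their highest, it was at 8.95 FPKM.

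Cx3cr1 (chromosome 9, 119957811 to 119977400), the receptor of fractalkine, had the lowest level and was the 1 gene with a negative log2 difference. It was at 0.842, 0.715 and 1.98 FPKM in deleted replicates 1 to 3, against 1.89, 2.12, 4.47 and 1.40 FPKM in wildtype replicates 1 to 4. Deleted replicates 1 and 2 lay below all 4 wildtype libraries, and deleted replicate 3 lay above 2 of them. The means were 1.18 ± 0.699 FPKM in deleted and 2.47 ± 1.37 FPKM in wildtype libraries. The log2 difference was -0.64 (SE 0.33, 95% interval -1.40 to 0.11, adjusted p = 0.795 in limma), with an exact 2-sided permutation p of 0.171. It was -0.40 without wildtype replicate 3 and -0.89 without deleted replicate 3. The values rest on 64, 45 and 172 inferred fragments in deleted libraries, against 123, 110, 414 and 112 in wildtype libraries. Cx3cl1, which encodes fractalkine, averaged 9.02 ± 4.80 FPKM in deleted and 6.63 ± 1.09 FPKM in wildtype libraries, a log2 difference of 0.30 (adjusted p = 0.797 in limma), and deleted replicate 2 held 14.5 FPKM. The 250 bases before the Cx3cr1 start are shown because Cx3cr1 departed from the other genes (RefSeq, GRCm38.p6, chr9:120068297-120068546, minus strand, 5′ to 3′, capitals as above).
Cx3cr1: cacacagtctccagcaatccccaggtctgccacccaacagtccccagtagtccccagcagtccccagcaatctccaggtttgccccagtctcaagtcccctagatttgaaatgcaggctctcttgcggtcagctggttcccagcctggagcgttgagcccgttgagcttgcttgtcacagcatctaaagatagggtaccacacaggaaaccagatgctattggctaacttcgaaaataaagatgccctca
None of the 3 longer motifs is in these bases. Over the whole window of 300 bases, which also holds bases after the start, GGAA occurs 3 times on either strand. This is the fewest of the 7 genes with a window, which held 3 to 6. It equals the median of 3 over all 32817 windows.

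Cd68 (chromosome 11, 69477873 to 69479564) encodes a lysosomal membrane glycoprotein of phagocytes. It was at 26.1, 46.5 and 54.3 FPKM in deleted libraries, against 27.8, 24.9, 52.5 and 20.3 FPKM in wildtype libraries. High and low libraries occurred in both genotypes, and the means were 42.3 ± 14.6 FPKM in deleted and 31.4 ± 14.4 FPKM in wildtype libraries. The log2 difference was 0.45 (SE 0.35, adjusted p = 0.795 in limma). It was 0.24 without deleted replicate 3 and 0.75 without deleted replicate 1.

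Lyz2 (chromosome 10, 116714597 to 116719328), the lysozyme of macrophages and neutrophils, was the most abundant of the 10, with the largest SD of log2(FPKM + 1) within genotype. It was at 95.5, 264 and 261 FPKM in deleted libraries, against 192, 115, 442 and 103 FPKM in wildtype libraries. The means were 207 ± 96.4 FPKM in deleted and 213 ± 158 FPKM in wildtype libraries, and the log2 difference was 0.07 (SE 0.57, 95% interval -1.24 to 1.39, adjusted p = 0.970 in limma), so the linear means and the log2 means differ in sign. The interval is wide enough to hold a change of more than 1 log2 unit in either direction. The sign turned to -0.17 without deleted replicate 2, -0.16 without deleted replicate 3, -0.14 without wildtype replicate 2 and -0.19 without wildtype replicate 4. Lyz1, the near-identical neighbouring lysozyme gene, averaged 1.09 ± 1.18 FPKM in deleted and 1.56 ± 1.77 FPKM in wildtype libraries. How fragments were divided between these genes is not given in the sources used here, so the split between them is uncertain. Marker genes of neutrophils summed to 201 FPKM in deleted replicate 3 and to 17.8 FPKM in wildtype replicate 3, the library highest in Lyz2. Without S100a8 and S100a9 these sums were 36.2 and 7.99 FPKM. The part of neutrophils in Lyz2 was not tested.

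Pf4 (chromosome 5, 91201461 to 91202409) encodes platelet factor 4, a chemokine of megakaryocytes that fetal and tissue macrophages also express. It was at 3.59, 9.83 and 8.92 FPKM in deleted libraries, against 3.55, 2.61, 7.04 and 2.90 FPKM in wildtype libraries. Deleted replicates 2 and 3 lay above all 4 wildtype libraries, and deleted replicate 1 did not. Pf4 had the largest positive difference of the 10, 0.73 on the log2 scale (SE 0.38, 95% interval -0.14 to 1.60, adjusted p = 0.795 in limma), with an exact 2-sided permutation p of 0.171. The difference was 1.12 without deleted replicate 1 and 0.50 without deleted replicate 2. It was measured on 32, 72 and 83 inferred fragments in deleted libraries, against 27, 16, 69 and 25 in wildtype libraries. Of the 12 megakaryocyte and platelet markers, Gp6 was listed at 0 in all 7 libraries and Ppbp reached at most 0.601 FPKM. The other 11 were above 0 in at least 1 library. The summed level of this list was 4.91 to 6.80 FPKM in deleted libraries and 7.17 to 10.1 FPKM in wildtype libraries. Without F2rl3, which was at 1.85, 0.996 and 1.49 FPKM in deleted libraries, against 4.74, 3.62, 2.65 and 3.90 FPKM in wildtype libraries, the sums of the genotypes overlap, at 3.91 to 5.31 FPKM in deleted and 3.79 to 5.37 FPKM in wildtype libraries. The 250 bases before the starts of Pf4 and Cd68 are shown because they hold motif matches (RefSeq, GRCm38.p6, 5′ to 3′; Pf4 at chr5:90772185-90772434, plus strand, and Cd68 at chr11:69666171-69666420, minus strand; capitals as above).
Pf4: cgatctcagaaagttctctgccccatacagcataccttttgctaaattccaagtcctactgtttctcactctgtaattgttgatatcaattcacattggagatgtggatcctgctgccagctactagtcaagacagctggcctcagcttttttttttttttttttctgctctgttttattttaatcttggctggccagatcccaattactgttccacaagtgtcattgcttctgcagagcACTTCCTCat
Cd68: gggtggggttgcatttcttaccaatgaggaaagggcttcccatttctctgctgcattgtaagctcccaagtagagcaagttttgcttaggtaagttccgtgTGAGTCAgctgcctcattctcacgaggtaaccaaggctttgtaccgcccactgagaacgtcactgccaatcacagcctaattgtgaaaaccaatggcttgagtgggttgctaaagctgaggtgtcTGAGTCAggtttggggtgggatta
In Pf4 the PU.1 letters stand on the opposite strand, 10 bases before the start. In Cd68 the AP-1 letters occur 149 and 24 bases before the RefSeq start, which is less certain, as given above.

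The levels of the 10 genes, per length, spanned from Lyz2 at a mean of 210 FPKM over the 7 libraries to Cx3cr1 at 1.92 FPKM. Lyz2 stood apart, with its lowest library above the highest library of any other. C1qc, C1qb, Cd68 and C1qa followed at means of 38.6, 37.3, 36.1 and 31.1 FPKM, and their ranges overlap. Every library of these 4 genes lay above every library of the next group. That group held Mrc1, Csf1r, Emr1 and Pf4 at means of 10.5, 9.07, 8.53 and 5.49 FPKM. Ranges of neighbours in this group overlap, but Emr1 was above Pf4, and Pf4 above Cx3cr1, in 7 of 7 libraries.

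The macrophage genes varied more between libraries of 1 genotype than most genes. The SD of log2(FPKM + 1) within genotype had a median of 0.52 over the 10 genes, beside 0.21 over all genes tested, and 10 of 10 lay above that median. Of all genes tested, 63.2% had a smaller SD than Mrc1 and 98.0% a smaller SD than Lyz2, the ends of the range. The highest library was 1.95 times the lowest for Mrc1 and 6.25 times for Cx3cr1. Counting error in the lowest library was 0.36 log2 units for Pf4 and 0.22 for Cx3cr1. For the other 8 genes it was 0.04 to 0.09, well below their SD between libraries.

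Most of the 10 genes went up and down together across libraries. The median Pearson r of the 45 pairs was 0.78 over the 7 libraries, with a range of -0.38 for Mrc1 with Cx3cr1 to 0.985 for C1qb with C1qc. These values are a description, since the libraries share their depth and their cell content across genes. Over all 45 pairs, r exceeded 0.7 in 29. Among the 28 pairs without Cx3cr1 and Mrc1, r was 0.69 to 0.985 and exceeded 0.7 in 27. These genes were left out for their low r in the same values, so the higher share follows from that choice. Emr1 followed Cd68 at 0.968 and Lyz2 at 0.955. The median r with the other 9 genes was 0.34 for Cx3cr1 and 0.57 for Mrc1, and 0.78 to 0.88 for the remaining 8.

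**Figure D2:**
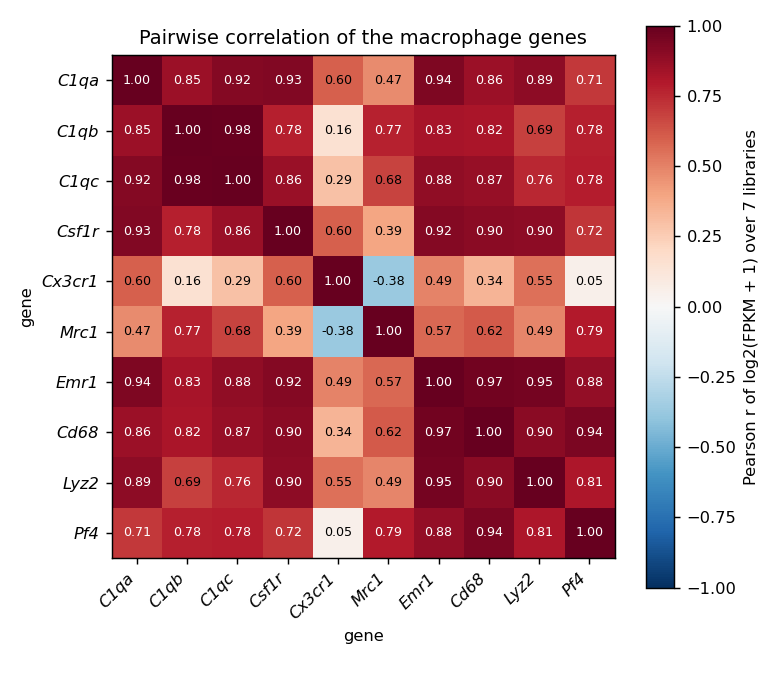
Pearson r of log2(FPKM + 1) over the 7 libraries for each pair of the 10 macrophage genes, both axes listing the genes. The rows of Cx3cr1 and Mrc1 are paler than the rest, and the pair Mrc1 and Cx3cr1 has the 1 negative value, -0.38.

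Outside the 10 genes, those with the most similar pattern were found by their Pearson r with the mean of the 10 over the 7 libraries, among 4276 genes with an SD of at least 0.3. The closest was Myo1f, a myosin of blood cells, at r = 0.991 (rho 0.964). Cd84, a receptor of the signalling lymphocyte activation family, followed at 0.989 (rho 1.0). Then came Arl11, a small GTPase, at 0.981, Ncf1, a subunit of the phagocyte NADPH oxidase, at 0.980 and Cdh8, a cadherin known from neurons, at 0.979. Casp1, the protease of inflammasomes, and Nckap1l, an actin regulator of blood cells, were both at 0.978. Dock2, a Rac activator of blood cells, was at 0.974, Trem2, a lipid-sensing receptor of myeloid cells, at 0.970 and Fermt3, a kindlin of blood cells, at 0.969. Without deleted replicate 3 and wildtype replicate 4, the libraries farthest from the median, these r were 0.961 to 0.989 over 5 libraries. Of the 4276 genes, 67 (1.59%) had an r over 0.9, and the median r was 0.01. Trem2 was at 10.4, 19.2 and 25.2 FPKM in deleted libraries, against 14.0, 8.36, 33.1 and 5.49 FPKM in wildtype libraries. It was picked by its r, so its similar order follows from that choice. None of the 10 similar genes passed the test between genotypes (adjusted p = 0.803 to 0.930 in limma).

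**Figure D3:**
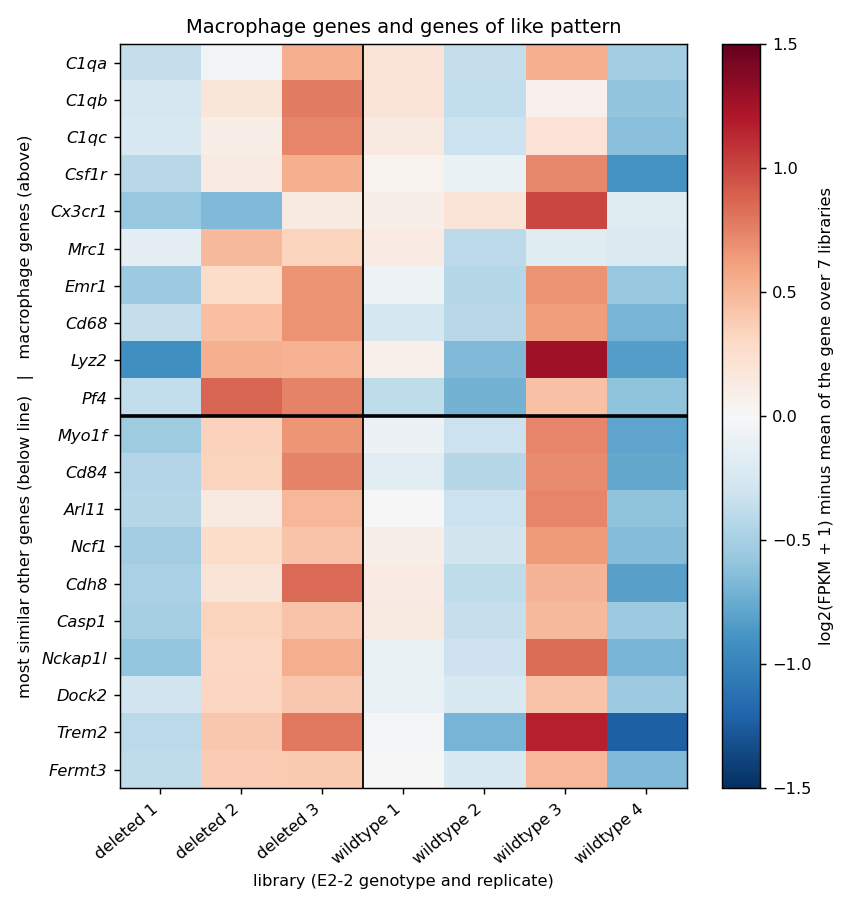
Log2(FPKM + 1) minus the mean of each gene over the 7 libraries (colour scale from -1.5 to 1.5), libraries as columns with E2-2 deleted left of the vertical line, the 10 macrophage genes above the horizontal line and the 10 genes of most similar pattern below it. Deleted replicate 3 and wildtype replicate 3 are red in most rows, and deleted replicate 1 and wildtype replicates 2 and 4 blue, with Cx3cr1 and Mrc1 as the rows that depart.

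Relative to the other macrophage genes, Cx3cr1 was lower in deleted libraries. The ratio of its FPKM to that of Csf1r in the same library was 0.138, 0.0767 and 0.156 in deleted replicates 1 to 3, against 0.214, 0.271, 0.306 and 0.342 in wildtype replicates 1 to 4. All 3 deleted libraries lay below all 4 wildtype libraries, with means of 0.124 ± 0.0416 in deleted and 0.283 ± 0.0544 in wildtype. The difference of the mean log2 ratios was -1.24. Of all genes, 13 of 13468 (0.0965%) had a ratio to Csf1r that was lower in every deleted library. The ratio of Cx3cr1 was likewise lower in every deleted library against 9 of 9 other macrophage genes, and against 1113 of 13435 genes in all (8.28%). This pattern was noticed in these values, so no test of it is given. The difference of the log2 ratio to Csf1r was -0.93 without deleted replicate 2 and -1.44 without deleted replicate 3. The ratios of the other 8 genes to Csf1r overlapped between genotypes, for example Cd68 at 4.51 ± 0.410 in deleted and 3.73 ± 0.859 in wildtype libraries. Without Cx3cr1, 4 of 36 pairs of macrophage genes had ratios that do not overlap: C1qa to C1qb and C1qa to C1qc, both lower in deleted libraries, and Pf4 to Emr1 and Pf4 to Lyz2, both higher. Over all genes, the ratio of C1qa to a gene was lower in every deleted library for 1.13% of 13435, and that of Pf4 higher for 1.36%.

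**Figure D4:**
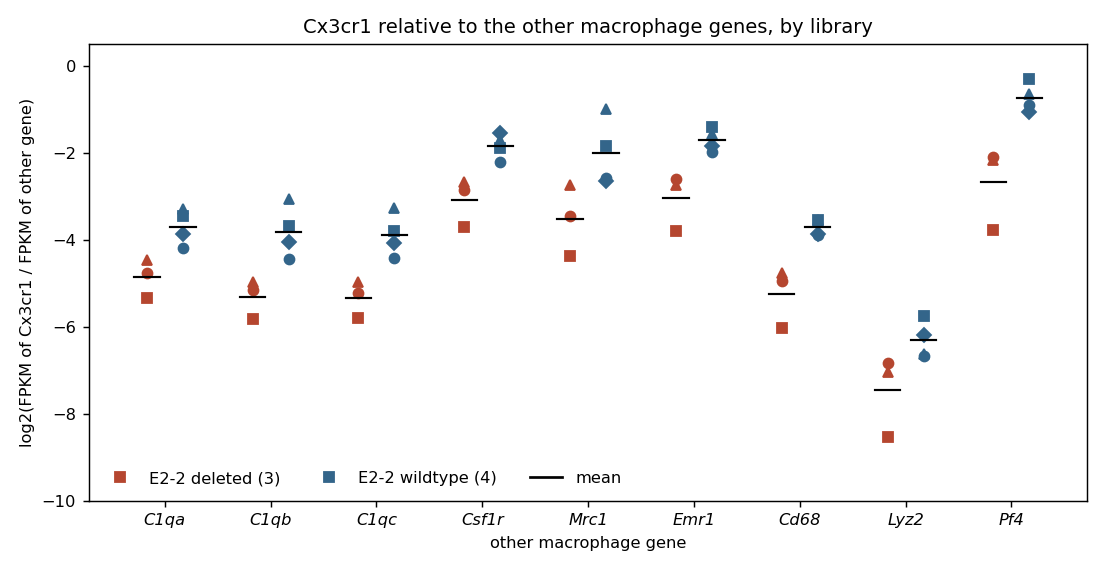
Log2 of the ratio of Cx3cr1 FPKM to the FPKM of each other macrophage gene, by library, with E2-2 deleted in red on the left and E2-2 wildtype in blue on the right of each gene (circle, square, triangle and diamond for replicates 1, 2, 3 and 4; line for the mean). For 9 of 9 genes the 3 deleted libraries lie below the 4 wildtype libraries, and deleted replicate 2 is the lowest library.

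Other genes of macrophages and myeloid cells were read from a list of 50, of which 43 were tested. Of these, 35 had a positive and 8 a negative difference, with a median of 0.20 (all genes tested, -0.05), and 0 passed the adjusted threshold in limma. The median was -0.01 without deleted replicate 3 and 0.44 without wildtype replicate 3. At an unadjusted p under 0.05, 3 were higher in deleted libraries and 0 lower, beside 3.29% and 1.2% of all genes tested. These 3 were Lyve1, a hyaluronan receptor of tissue macrophages and lymphatic vessels, Slco2b1, an organic anion transporter, and Tmem119, a membrane protein of microglia and bone-forming cells. Lyve1 was at 1.38, 3.51 and 2.29 FPKM in deleted libraries, against 1.17, 1.30, 1.24 and 1.06 FPKM in wildtype libraries, and the groups do not overlap. Slco2b1 averaged 2.37 ± 0.825 FPKM in deleted and 1.18 ± 0.462 FPKM in wildtype libraries. Tmem119 was at 33.5, 100.6 and 47.7 FPKM in deleted libraries, against 29.3, 27.2, 38.5 and 22.1 FPKM in wildtype libraries. Deleted replicate 2, the library low in Six2, held by far the most. Its r with the mean of the 10 macrophage genes was 0.60. Tyrobp, the adaptor of myeloid receptors, was at 36.8, 40.5 and 91.0 FPKM in deleted libraries, against 49.7, 33.8, 86.1 and 27.5 FPKM in wildtype libraries, with an r of 0.925. Dab2, an endocytic adaptor, averaged 33.9 ± 8.98 FPKM in deleted and 28.4 ± 6.96 FPKM in wildtype libraries. Over the 43 genes the median r with the mean of the 10 was 0.85, and 27 exceeded 0.7. Sfpi1, the older symbol of Spi1 used in the tables, which encodes PU.1, had an r of 0.927 and averaged 4.70 ± 1.90 FPKM in deleted and 4.56 ± 2.56 FPKM in wildtype libraries.

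Lysosome genes were all tested, 25 of 25. Of these, 22 had a positive and 3 a negative difference, where 39.3% of all genes tested were positive, with a median of 0.25, and 0 passed the adjusted threshold in limma. The median was 0.15 without deleted replicate 2. Their median r with the mean of the 10 macrophage genes was 0.52, and lysosomes are in every cell of the kidney. Ctsd, an aspartic protease, averaged 701 ± 206 FPKM in deleted and 512 ± 165 FPKM in wildtype libraries, a log2 difference of 0.47 (adjusted p = 0.795 in limma). Ctsb, a cysteine protease, averaged 225 ± 69.3 FPKM in deleted and 176 ± 53.9 FPKM in wildtype libraries, with an r of 0.903. Ctsl, another cysteine protease, averaged 357 ± 83.4 FPKM in deleted and 290 ± 5.66 FPKM in wildtype libraries, with 451.9 FPKM in deleted replicate 2 and 326.5 FPKM in deleted replicate 3, both above every wildtype library. Psap, the precursor of the saposins, averaged 336 ± 47.3 FPKM in deleted and 280 ± 44.5 FPKM in wildtype libraries. At an unadjusted p under 0.05, 2 of 25 were higher in deleted libraries and 0 lower, beside 3.29% and 1.2% of all genes tested: Ctsh, a cathepsin, at 37.4 ± 9.21 FPKM in deleted and 20.6 ± 7.51 FPKM in wildtype libraries, and Gaa, the acid glucosidase, at 36.4 ± 4.07 FPKM in deleted and 30.5 ± 2.09 FPKM in wildtype libraries.

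Of 18 ligands and partners of the 10 genes, 15 were tested, 10 with a positive and 5 with a negative difference, where 39.3% of all genes tested were positive. Their median was 0.04, or 0.02 without wildtype replicate 4 and 0.15 without wildtype replicate 3, and 0 passed the adjusted threshold in limma. At an unadjusted p under 0.05 in limma, 1 of 15 was higher in deleted libraries and 0 lower, beside 3.29% and 1.2% of all genes tested. The higher gene was C2, a component of the classical complement pathway downstream of C1q. C2 was at 2.44, 7.28 and 6.44 FPKM in deleted libraries, against 2.56, 2.75, 1.78 and 1.77 FPKM in wildtype libraries. Deleted replicates 2 and 3 lay above all 4 wildtype libraries, and deleted replicate 1 within their range (log2 difference 0.91, SE 0.31, adjusted p = 0.795 in limma). Calr, the calreticulin that binds C1q on dying cells, averaged 527 ± 67.7 FPKM in deleted and 514 ± 65.5 FPKM in wildtype libraries. Cd93, a surface protein of endothelial cells once described as a C1q receptor, averaged 55.3 ± 5.19 FPKM in deleted and 56.2 ± 19.2 FPKM in wildtype libraries. The lysosomal membrane proteins Lamp1 and Lamp2, which Cd68 resembles, had log2 differences of 0.15 and 0.20 (adjusted p = 0.820 and 0.795 in limma).

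The genes for clearance of dying cells, 15 of 18 tested, were divided 8 to 7 between positive and negative differences, with a median of 0.04, and 0 passed the adjusted threshold in limma. The median was 0.01 without wildtype replicate 4 and 0.09 without wildtype replicate 2. Gas6, the ligand that bridges dying cells to phagocytes, was at 49.3, 119 and 65.5 FPKM in deleted libraries, against 49.4, 42.3, 73.1 and 37.5 FPKM in wildtype libraries. Its highest value was again in deleted replicate 2. Its receptor Axl averaged 55.5 ± 5.59 FPKM in deleted and 57.0 ± 9.15 FPKM in wildtype libraries. Mfge8, the bridge to integrins, averaged 91.1 ± 16.0 FPKM in deleted and 87.8 ± 3.54 FPKM in wildtype libraries. Itgav, the integrin chain that binds it, averaged 46.7 ± 15.9 FPKM in deleted and 37.9 ± 5.74 FPKM in wildtype libraries.

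Marker lists of other cells differed from the macrophage genes in their order over libraries. The neutrophil list, 12 of 12 above 0 somewhere, summed to 54.9, 58.1 and 201 FPKM in deleted libraries, against 28.1, 14.5, 17.8 and 22.6 FPKM in wildtype libraries. In deleted replicate 3, S100a8 was at 70.6 and S100a9 at 93.9 FPKM. Ngp at 9.78, Camp at 5.54, Ltf at 5.24 and Retnlg at 2.45 FPKM also had their highest values in this library. Mpo, Elane, Lcn2, Prtn3 and Ctsg had theirs in other libraries, and Elane, an enzyme of neutrophil granules, reached at most 0.187 FPKM. In deleted replicate 2, S100a9 was at 48.2 FPKM and S100a8 at 3.63 FPKM, while Ngp, Mpo, Elane, Camp and Ctsg were at 0. Without S100a8 and S100a9 the sums overlap, at 15.9, 6.21 and 36.2 FPKM in deleted libraries, against 11.7, 8.07, 7.99 and 21.4 FPKM in wildtype libraries. The red blood cell list, 13 of 14 matched, summed to 10.2 to 560 FPKM in deleted and 66.0 to 258 FPKM in wildtype libraries, with 560 FPKM in deleted replicate 3. Of this sum, 307 FPKM was Hba-a1. Hbb-y, Hba-x and Hba-a2 were highest in wildtype replicate 1 and Hbb-bh1 in deleted replicate 1. The other matched genes of the list were highest in deleted replicate 3. Deleted replicate 3 also gave C1qa, C1qb and C1qc their highest values, and the part of blood cells in these was not tested. Wildtype replicate 3, with the highest macrophage sum, had the lowest red blood cell sum among wildtype libraries, 66.0 FPKM. The monocyte list, 9 of 9 above 0, summed to 564 to 965 FPKM in deleted and 526 to 673 FPKM in wildtype libraries. Fn1, which many cells express, was at up to 664 FPKM, while Ccr2 reached at most 0.145 FPKM. Of 5 monocyte genes tested, 3 had a positive and 2 a negative difference. In 1 of 5, S100a4, the groups do not overlap, beside 4.89% of all genes tested. S100a4 was at 43.7, 148 and 92.8 FPKM in deleted libraries, against 22.1, 15.1, 28.3 and 11.4 FPKM in wildtype libraries (adjusted p = 0.795 in limma). The dendritic cell list, 12 of 12 above 0, summed to 51.4, 18.3 and 25.9 FPKM in deleted libraries, against 37.9, 51.6, 32.1 and 56.1 FPKM in wildtype libraries. Cd209a was at 0 in 6 libraries. Of 7 dendritic cell genes tested, 1 had a positive and 6 a negative difference. The positive one, Flt3, was at 0.953, 5.06 and 1.25 FPKM in deleted libraries, against 0.297, 0.512, 0.110 and 0.0763 FPKM in wildtype libraries. H2-Aa averaged 1.67 ± 1.83 FPKM in deleted and 4.94 ± 2.37 FPKM in wildtype libraries. The plasmacytoid dendritic cell list, 12 of 12 above 0, summed to 61.3 to 93.1 FPKM in deleted and 49.2 to 98.2 FPKM in wildtype libraries, mostly Bst2, and Siglech was at 0 in 6 libraries. The mast cell list, 9 of 10 above 0, summed to 42.0 to 74.5 FPKM in deleted and 22.5 to 54.6 FPKM in wildtype libraries. Most of each sum came from Kit and Gata2. Cpa3 reached at most 0.327 FPKM, and Fcer1a was at 0 in all 7. The list of T, NK and B cells, 10 of 15 above 0, summed to 2.81 to 6.45 FPKM in deleted and 4.73 to 6.70 FPKM in wildtype libraries, with Cd3g, Cd3d, Cd2, Ncr1 and Ms4a1 at 0 in all 7. The endothelial list, 13 of 13 above 0, summed to 376 to 556 FPKM in deleted and 292 to 628 FPKM in wildtype libraries. The kidney list, 13 of 13 above 0, summed to 144 to 377 FPKM in deleted and 257 to 439 FPKM in wildtype libraries, with 144 FPKM in deleted replicate 2.

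**Figure D5:**
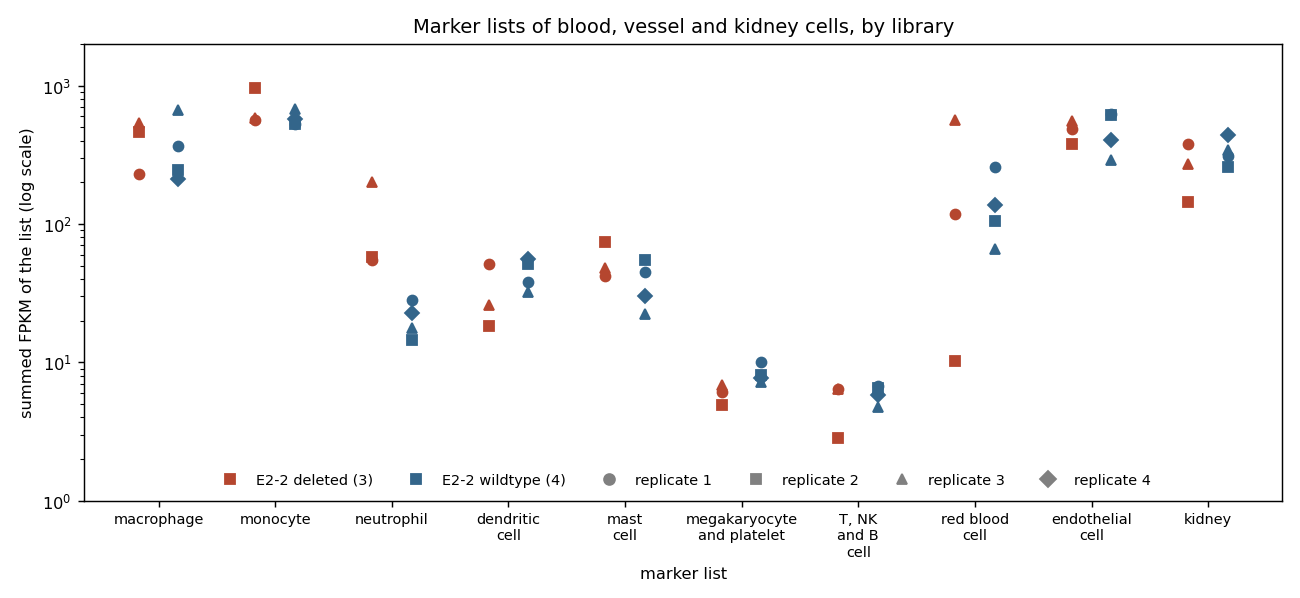
Summed FPKM (log axis) of marker lists by library, E2-2 deleted in red on the left and E2-2 wildtype in blue on the right of each list, with symbols for the replicate. The macrophage sums of the genotypes overlap, 231 to 534 FPKM in deleted and 212 to 667 FPKM in wildtype libraries. The neutrophil sums of the 3 deleted libraries lie above those of the 4 wildtype libraries, but overlap them without S100a8 and S100a9. Deleted replicate 2 is lowest for kidney and red blood cells.

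The deposited names of deleted replicates 1 and 2 and wildtype replicates 1 and 2 begin with BI, and those of deleted replicate 3 and wildtype replicates 3 and 4 with BM. The labels do not say what the prefix means, and BM holds 1 deleted library. The difference of the mean of the 10 genes was 0.08 within BI and 0.59 within BM. C1qa and Csf1r turned sign, at -0.12 and -0.12 within BI and 0.54 and 0.62 within BM. Cx3cr1 was at -0.76 within BI and -0.28 within BM, and its log2 ratio to Csf1r at -1.23 and -1.05. Pf4 was at 0.80 within BI and 0.82 within BM, and Mrc1 at 0.30 and 0.54. The other differences within BI and BM were 0.06 and 1.05 for C1qb, 0.03 and 0.94 for C1qc, 0.12 and 0.62 for Emr1, 0.39 and 0.71 for Cd68, and 0.10 and 0.29 for Lyz2.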

How the data were processed

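Poly-A RNA of cultured fetal kidneys was sequenced as 7 libraries after an Illumina TruSeq RNA preparation, per the labels' protocols. Each deposited table holds 1 library, with FPKM values by the authors for 23699 entries and a lower and an upper bound of each, per the file headers. The submitters' processing notes list Cufflinks 2.0.2, TopHat2 2.0.4 and CASAVA 1.8.2 with no roles. Neither the build nor the annotation is given in the sources used here. In the table of E2-2 deleted replicate 2, 25 symbols had become dates and were taken from another table with identical loci. Start positions were raised by 1, since of 223 entries that share an end with a GRCm38 gene, 165 start 1 base lower.

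Entries of a symbol were summed, genes with a failed status in any library or a locus under 200 bases were left out, and 13469 of the remaining 22363 genes had a mean of at least 1 FPKM. limma 3.58.1 in R 4.3.3 compared log2(FPKM + 1), E2-2 deleted minus E2-2 wildtype, over all 7 libraries (mean-variance trend, 2-sided, Benjamini-Hochberg over all genes tested, threshold 0.05); such differences understate the change of low genes. The exact permutation test has 35 splits and a smallest p of 0.0286. The tables hold no counts: fragments were inferred as the square of 2 times FPKM over the distance to the upper bound, whole within 0.05 for 79.0% to 80.3% of single-start entries under 300 fragments, and for 14 of 14 values of the macrophage genes under 300. Depth is their sum. They cover counting error only. A count test was therefore not run. The limma step was tested on simulated data.

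The macrophage genes and the lists were chosen with earlier results of these data known. Named genes are the 10 macrophage genes, Csf1, Il34 and Cx3cl1, the 4 genes of highest mean FPKM of each list, and the 10 genes of most similar pattern; predicted genes and clones were passed over. A single gene named by this rule is not reported here. The list genes Lyve1, Slco2b1, C2, Ctsh, Gaa, Lyz1, Sfpi1 and the single markers fall outside this rule and were named after their values were seen. Replicate numbers follow the order of deposit. Alternatives were other pseudocounts, filters, scalings, variance models, the name prefix as a term or a stratum, and leaving out each library. The sums without F2rl3, or without S100a8 and S100a9, and the pairs without Cx3cr1 and Mrc1 were added after seeing the data.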

Additional observations from a re-analysis of the deposited data

Results flagged for a closer look

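Of 52 quantities read over the 4 wildtype libraries, 2 had a library far from the others by Dixon's criterion, and chance gives about 1 in 20. Csf1 was at 8.25 FPKM in E2-2 wildtype replicate 1, against 12.7 to 13.3 FPKM in the other wildtype libraries and 9.79 to 13.9 FPKM in deleted libraries. Psap was at 213 FPKM in E2-2 wildtype replicate 4, the library lowest in the macrophage genes, against 301 to 303 FPKM in the other wildtype libraries. None of the 10 macrophage genes was among them. Groups of 3 are not tested this way.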

How the results depend on the processing

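In 17 other settings, 0 macrophage genes passed the adjusted threshold in limma (10 were tested in 16 settings and 9, without Cx3cr1, at a mean of at least 5 FPKM), and their lowest adjusted p in any setting was 0.383. Of 348 values under alternatives, 14 changed sign, 12 of single genes and 2 of list medians (other macrophage genes without deleted replicate 3, at -0.01, and clearance genes within the BI names, at -0.02). Not all 348 could do so. They include counts of genes past the threshold, which were 0 in the main setting. Other filters and variance models also left the differences of single genes as they were. Within the BI names the differences of C1qa and Csf1r were -0.12 and -0.12. Leaving out 1 library at a time gave -0.16 to 0.29 for C1qa, -0.14 to 0.40 for Csf1r, -0.032 to 0.58 for Emr1 and -0.19 to 0.56 for Lyz2; the cause was not tested. The same gave 0.004 to 0.50 for the mean of the 10 genes, lowest without deleted replicate 3 and highest without deleted replicate 1, and -1.44 to -0.93 for the log2 ratio of Cx3cr1 to Csf1r, an alternative added after seeing the data. The median of the clearance genes was 0.25 within the BM names. Median-of-ratios scaling put 46.0% of all genes at a positive difference, and leaving out deleted replicate 2 put 53.3% there. Genes with an unadjusted p under 0.05 numbered 250 without deleted replicate 2 and 1473 without deleted replicate 1. With no filter on low values 1 gene passed the adjusted threshold, which is no macrophage gene. Each macrophage gene had 1 entry, so keeping the highest entry changes nothing. No paired analysis was possible because the labels give no replicate numbers. Depth limits Pf4 and Cx3cr1 most.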
